A study of Mus musculus with 6 samples.

Results

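The clustered protocadherins are cell surface proteins of the cadherin family whose genes lie in 3 neighbouring arrays, the alpha, beta and gamma clusters. They were taken as the protein-coding genes whose symbols begin with Pcdha, Pcdhb, Pcdhga, Pcdhgb or Pcdhgc and go on with a number, or with c and a number in the alpha cluster. This gave 54 of the 30462 genes in the table, of which 18070 are protein coding. There were 12 alpha genes, 22 beta genes and 20 gamma genes, and the gamma genes comprised 11 of type A, 6 of type B and 3 of type C. In the alpha cluster, Pcdhac1 and Pcdhac2 are the 2 C-type genes. The numbering of the alpha and gamma genes taken has gaps, and cluster sums and shares below cover only the genes taken.

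The cochlea, the part of the inner ear that detects sound, was compared between mice labelled NEU4 KO and wild-type (WT) mice at postnatal day 7. Neu4 encodes a sialidase, which cleaves sialic acid from glycans. Total RNA was sequenced in 3 KO libraries (replicates 2, 4 and 5) and 3 WT libraries (replicates 3, 4 and 5). The labels give neither the part of Neu4 that was changed, nor strain, sex or further alleles, nor whether each library came from its own animal, so p-values here reflect the spread of these samples, which may be technical.

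In the alpha and gamma clusters, each variable first exon has its own promoter and encodes the extracellular, transmembrane and first cytoplasmic part of one protein, and is spliced to constant exons that every gene of the cluster shares. Beta genes have a single exon and no constant part. Neurons are known to switch on different combinations of the variable genes, a choice that involves CTCF and cohesin, whereas C-type genes are expressed more uniformly. The proteins bind like molecules on other cells and serve neurite self-avoidance and the survival of certain neurons in mice. The cochlea holds the spiral ganglion neurons beside hair cells, supporting cells, glia and connective tissue.

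Values were FPKM, a fragment count divided by the length of the exons and by the depth of the library. The libraries held 15170977 to 17192300 fragments, recovered from the FPKM values and exon lengths, of which the 54 genes took 5391, 5487 and 4766 in KO 2, 4 and 5, and 4792, 5478 and 4681 in WT 3, 4 and 5. Neu4, the targeted gene, had 0.0797 ± 0.0255 FPKM in KO and 0.0779 ± 0.0242 FPKM in WT libraries (SD, n = 3 each), 18 fragments in each group (exact two-sided permutation p = 0.8; 0.1 is the smallest possible for 3 against 3). The RNA of the targeted gene thus gave no check of the genotypes, and every direction here is that of the libraries labelled KO. By Xist and Ddx3y, KO 2, WT 3 and WT 4 were male and KO 4, KO 5 and WT 5 female. Markers of the cochlea were present: Pou4f3, the hair cell transcription factor, had 3.00 to 4.29 FPKM in KO and 2.76 to 3.51 FPKM in WT libraries, and Coch, a matrix protein gene of the spiral ligament, had 54.4 to 62.3 FPKM in KO and 46.2 to 49.4 FPKM in WT libraries.

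All 54 genes lie on the plus strand of chromosome 18 in build GRCm38. The alpha cluster spans 36930184 to 37187661, the beta cluster 37264938 to 37524479 and the gamma cluster 37661793 to 37841873. Most alpha genes share 2860 bp of exon with the other alpha genes, and most gamma genes share 2119 bp with one another, while 20 of the 22 beta genes share no exon base with another gene on their strand. The deposited FPKM divided by the whole exon length, shared exons included. Pcdha8 had 0 fragments in 4 libraries although 2860 of its 5338 exon bases are shared and Pcdhac2 had 169 to 275 fragments in the same libraries, so fragments in the shared exons were not counted for every alpha gene. To compare levels between genes, fragments were therefore also divided by the exon bases that a gene shares with no other on its strand, called its own exons below. This takes all counted fragments to lie in own exons, which was not checked in the alpha or the gamma cluster.

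On that scale, levels differed between the clusters. Alpha genes had a median of 0.159 FPKM over own exons, beta genes 0.920 and gamma genes 1.84. The distance between gamma and beta genes depends on this scale. Pcdhga11, the lowest gamma gene, had 1.15 FPKM over own exons and 0.637 as deposited FPKM. Exons on the opposite strand overlap 1381 of its 2637 own exon bases, and how such fragments were counted is not known. Beta genes without shared exons have the same value on both scales. As deposited FPKM, Pcdhac2 had 2.23, below Pcdhb17 (3.42) and Pcdhb20 (3.17), so its place in the order below also depends on the scale. Pcdhgc3, a C-type gene known for broad expression in many tissues, stood first with 17.4 FPKM over own exons, followed by Pcdhgb6 with 7.10 and by Pcdhac2, the C-type gene needed for the spacing of serotonergic axons in mice, with 4.34. Next came Pcdhga3 (3.91), Pcdhb17 (3.42), Pcdhb20 (3.17) and Pcdhga2 (2.96). Library ranges of neighbours in this order overlapped from Pcdhac2 downwards to Pcdhga2, while Pcdhgc3 and Pcdhgb6 stood above the next gene in all 6 libraries. Every gamma gene had at least 1.15 FPKM over own exons, whereas Pcdhb1, the first gene of the beta cluster, was at 0.00375. The 10 variable alpha genes were all between 0.0159 (Pcdha8) and 0.255 (Pcdha2). Spearman's rho between the place of a gene in its array and its level was 0.17 over the 12 alpha genes, 0.24 over the 22 beta genes and -0.09 over the 20 gamma genes, given as a description since the genes share libraries.

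**Figure D1:**
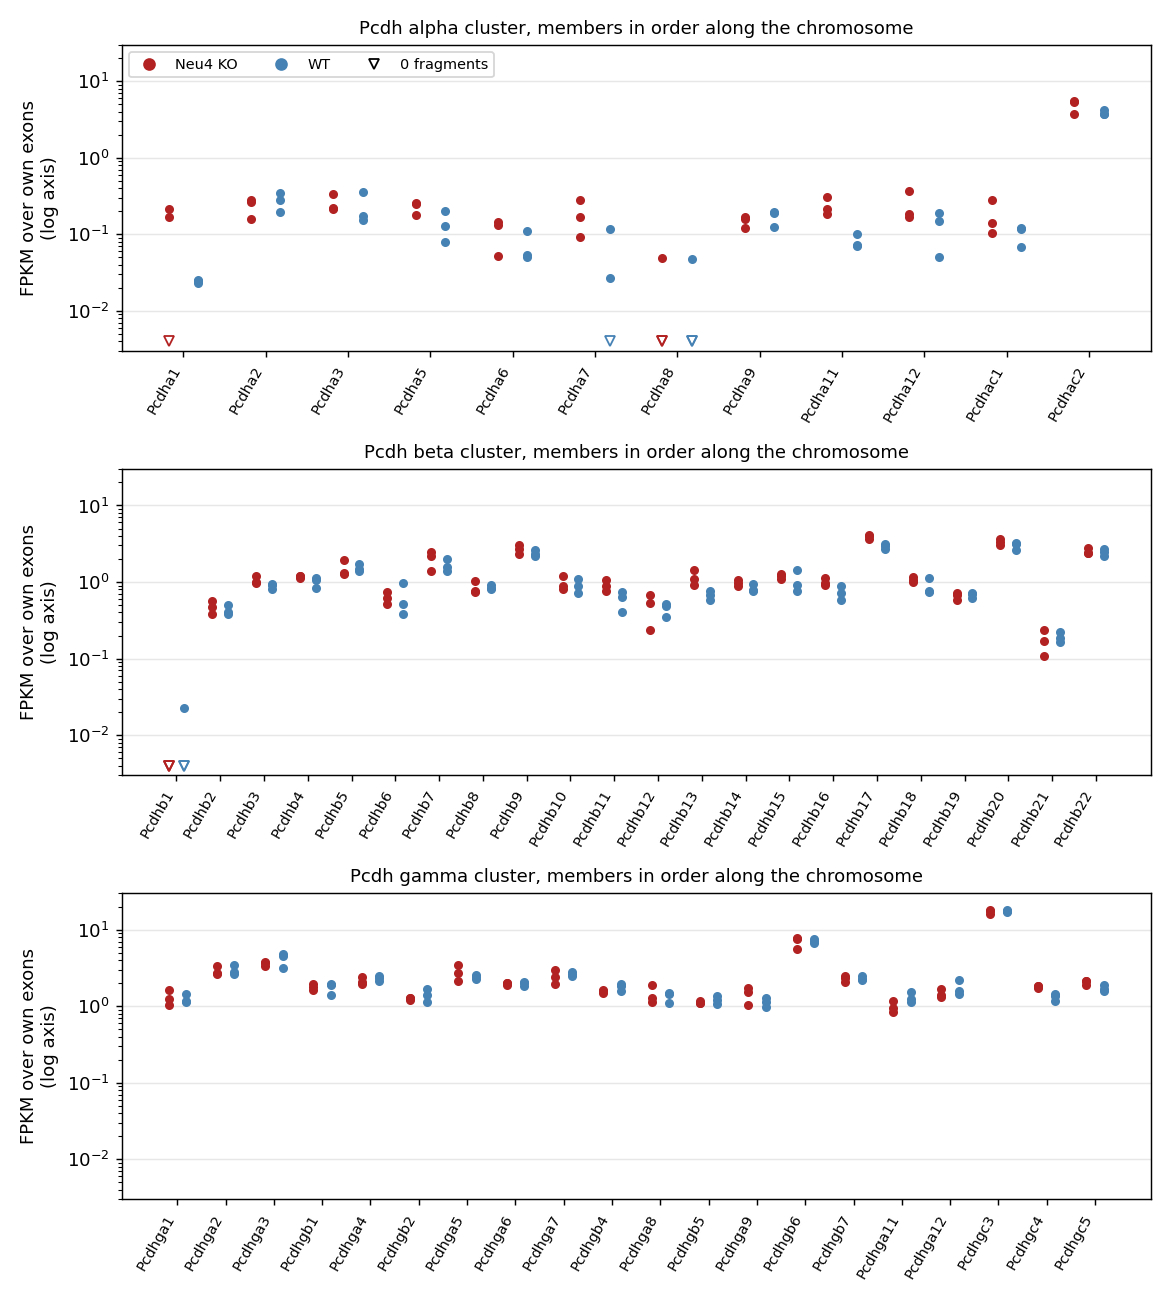
Expression of each clustered protocadherin in each library, as FPKM over own exons on a log axis, with genes in chromosome order and 1 panel per cluster. Red points are the 3 Neu4 KO libraries and blue points the 3 WT libraries, and open triangles mark libraries with 0 fragments. Pcdhgc3 (17.4 on average) and Pcdhac2 (4.34) stand out at the right of their clusters, and the variable alpha genes lie at or below 0.255 on average.

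Between the genotypes no clustered protocadherin passed the test. The 21 genes with at least 1 FPKM in at least 3 libraries (1 alpha, 9 beta, 11 gamma) were tested on log2(FPKM + 1) with limma, two-sided, in a fit over all 14072 genes that passed the same filter, and the added 1 makes fold changes of weakly expressed genes come out smaller. Of the 21, 0 were called at a Benjamini-Hochberg adjusted p under 0.05, where 0.334% of all genes tested were called (47 genes, 18 higher and 29 lower in KO, or 11 higher and 37 lower with median-ratio scaling of the libraries). At an unadjusted p under 0.05 there was 1 higher member, Pcdhb17, and none lower, against 10.6% higher and 6.99% lower among all genes tested. Voom, limma's test for counts, run on the recovered fragments also called 0 members, with 2 at an unadjusted p under 0.05 (19.3% of all genes), while calling 2.83% of genes. Leaving out 1 library moved the 47 called genes to 105 without KO 5 and to 12 to 21 without any other library, and called 0 members each time. With the filter lowered to 0.1 FPKM, 44 members were tested (3 alpha, 21 beta, 20 gamma) and again 0 were called by limma, where 0.101% of 20861 genes were, with 3 higher at an unadjusted p under 0.05 (Pcdhb17, Pcdhb13 and Pcdhgc4) where 8.57% of all genes were. The 10 members left out even then were Pcdhb1 and 9 alpha genes.

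Fold changes lay above 0 in most beta genes and on both sides of 0 in gamma genes. Of the 21 beta genes tested at the lower filter, 17 (81.0%) had a log2 fold change above 0, with a median of 0.12 (0.19 by voom), against 8 of 20 gamma genes (40.0%), with a median of -0.02 (-0.02 by voom), and 56.9% of all genes tested, with a median of 0.02. Without any filter the counts were 17 of 22 beta genes and 8 of 20 gamma genes. The 3 KO values all lay above the 3 WT values in 5 of the 21 beta genes (23.8%) and in 1 of the 20 gamma genes, and the reverse occurred in none, where 13.1% of all genes tested had all KO values above and 8.2% all below. Over the 44 members together this was 6 genes, or 13.6%. Whether the beta and gamma clusters differed from each other was not tested, because the genes of a cluster share libraries and are not replicates.

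**Figure D2:**
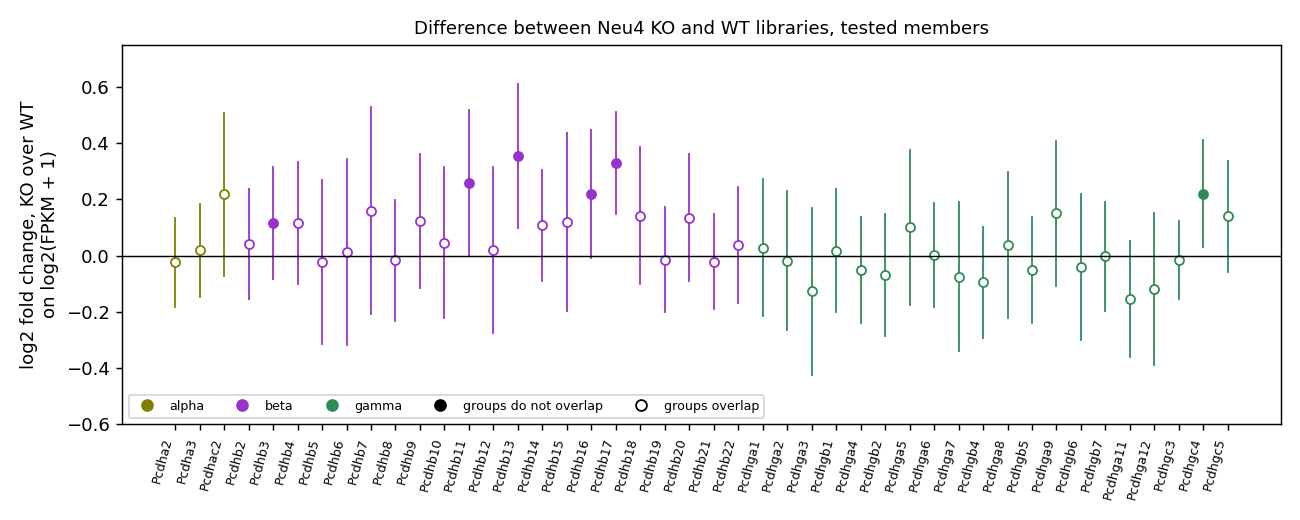
Log2 fold change of the 44 clustered protocadherins with at least 0.1 FPKM in at least 3 libraries, KO over WT, on log2(FPKM + 1), with 95% confidence intervals from limma and genes in chromosome order. Filled points are genes whose 3 KO values do not overlap the 3 WT values. Pcdhb13 (0.35) and Pcdhb17 (0.33) are highest, and gamma genes lie on both sides of 0.

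Summed over each cluster, only the beta RNA separated the groups. The 22 beta genes together took 118, 120 and 126 FPM (fragments scaled to library depth as in FPKM, but not divided by length) in KO 2, 4 and 5, against 99.6, 110 and 104 FPM in WT 3, 4 and 5, or 122 ± 4.28 FPM in KO and 105 ± 5.19 FPM in WT (SD, n = 3 each). All KO libraries lay above all WT libraries, also with median-ratio or upper-quartile scaling, and the log2 ratio of the means was 0.22. Among males, KO 2 had 118 against 99.6 and 110 in WT 3 and 4, and among females KO 4 and 5 had 120 and 126 against 104 in WT 5. The gamma genes took 183, 183 and 173 FPM in KO 2, 4 and 5 and 177, 192 and 175 in WT 3, 4 and 5, and the groups overlapped (180 ± 5.82 in KO, 181 ± 9.79 in WT). The alpha genes took 21.8, 21.6 and 14.8 FPM in KO 2, 4 and 5 and 14.0, 16.2 and 14.1 in WT 3, 4 and 5 (19.4 ± 4.01 in KO, 14.8 ± 1.25 in WT), with KO 2 and KO 4 above every WT library and KO 5 within the WT range. In RNA of whole tissue, more cells of a type and more RNA per cell cannot be told apart. No test was made of these sums, since the genes were chosen with results of these data known.

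**Figure D3:**
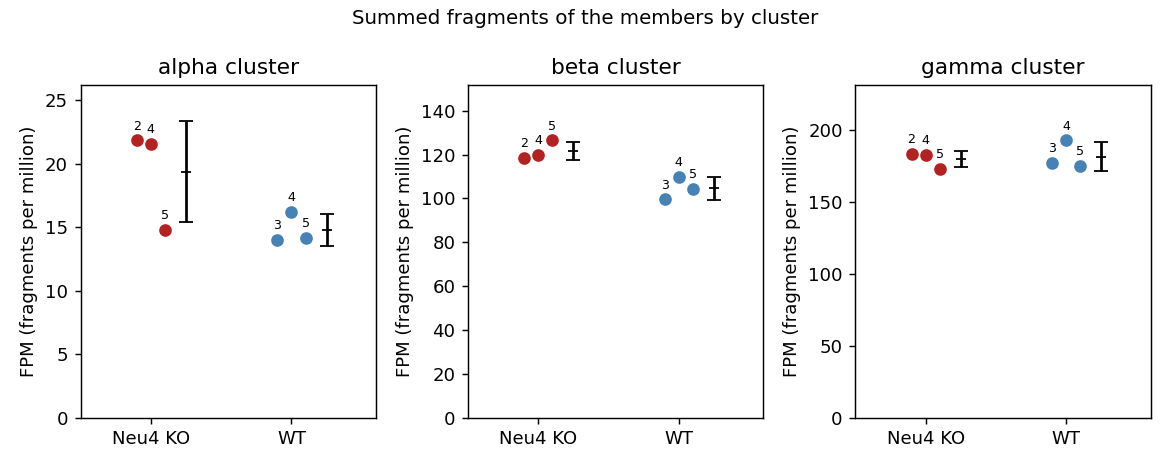
Summed expression in FPM of the alpha (12 genes), beta (22 genes) and gamma (20 genes) clusters in each library, with replicate numbers beside the points and bars for the mean ± SD of 3 libraries. Neu4 KO libraries are on the left of each panel and WT libraries on the right. The groups do not overlap in the beta panel (118 to 126 in KO, 99.6 to 110 in WT) and overlap in the other panels.

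Over the 6 libraries Pcdhb17 was the most abundant beta gene, but its WT mean was below that of Pcdhb20 (2.92 against 2.98 FPKM). Pcdhb17 had the smallest adjusted p of any member. It lies at 37484795 to 37489454 and its product is one of the cadherins without a constant cytoplasmic part. It had 3.63, 3.98 and 4.14 FPKM in KO 2, 4 and 5, against 3.09, 2.96 and 2.70 FPKM in WT 3, 4 and 5. Each KO library was above each WT library, with means of 3.92 ± 0.262 FPKM in KO and 2.92 ± 0.201 FPKM in WT (SD, n = 3 each). The log2 fold change was 0.33 (SE 0.0735, n = 3 each), which did not pass (limma adjusted p = 0.116). Over the other settings tried on the same filter, the limma adjusted p was between 0.0533 (voom) and 0.320 (with a replicate block). The gene rested on 282, 314 and 293 fragments in KO 2, 4 and 5 and on 238, 237 and 201 fragments in WT 3, 4 and 5. The only male KO library (3.63 FPKM) was above the male WT libraries (3.09 and 2.96 FPKM), and both female KO libraries (3.98 and 4.14 FPKM) were above the female WT library (2.70 FPKM).

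The other abundant beta genes overlapped between the groups. Pcdhb20 had 3.69, 3.32 and 3.07 FPKM in KO 2, 4 and 5 and 3.10, 2.58 and 3.25 FPKM in WT 3, 4 and 5 (log2 fold change 0.13, limma adjusted p = 0.485). Pcdhb9 had 2.34, 2.69 and 3.06 FPKM in KO 2, 4 and 5 and 2.18, 2.65 and 2.33 FPKM in WT 3, 4 and 5 (log2 fold change 0.12, limma adjusted p = 0.546). In both genes the highest library was a KO library and the lowest a WT library, with the remaining values mixed. The log2 fold change of Pcdhb20 was 0.081 without KO 2 and 0.061 without WT 4, and that of Pcdhb9 was 0.20 without KO 2, 0.053 without KO 5 and 0.080 without WT 3. Pcdhb22, the last gene of the cluster, had 2.26, 2.25 and 2.55 FPKM in KO 2, 4 and 5 and 2.03, 2.50 and 2.29 FPKM in WT 3, 4 and 5 (log2 fold change 0.04, limma adjusted p = 0.858). Pcdhb5 was the only one of the 9 beta genes in the stricter test with a fold change below 0, at 1.94, 1.32 and 1.27 FPKM in KO 2, 4 and 5 and 1.49, 1.73 and 1.38 FPKM in WT 3, 4 and 5 (log2 fold change -0.02, limma adjusted p = 0.945). Its highest and its lowest values both came from KO libraries.

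Among the lower beta genes, 4 more had groups that did not overlap, and they are named here because of that, after their values were seen. Pcdhb13 had 0.922, 1.10 and 1.42 FPKM in KO 2, 4 and 5, against 0.686, 0.580 and 0.759 FPKM in WT 3, 4 and 5. Its log2 fold change of 0.35 was the highest of the 44 tested members, with a 95% interval of 0.10 to 0.61 (SE 0.109, limma adjusted p = 0.230 at the lower filter). It rested on 206 fragments in KO and 124 in WT, and voom on these gave a log2 fold change of 0.74 (limma adjusted p between 0.135 with voom and 0.435 with a replicate block over the settings tried). KO 5 was the highest library and WT 4 the lowest. Pcdhb11 had 0.761, 0.882 and 1.06 FPKM in KO 2, 4 and 5 and 0.411, 0.632 and 0.736 FPKM in WT 3, 4 and 5 (log2 fold change 0.26, limma adjusted p = 0.349). Pcdhb16 had 0.965, 0.927 and 1.14 FPKM in KO 2, 4 and 5 and 0.881, 0.724 and 0.587 FPKM in WT 3, 4 and 5 (log2 fold change 0.22, limma adjusted p = 0.364). The gap between the groups was small in both, 0.761 against 0.736 FPKM in Pcdhb11 and 0.927 against 0.881 FPKM in Pcdhb16. Pcdhb3 had 0.967, 0.998 and 1.18 FPKM in KO 2, 4 and 5 and 0.928, 0.937 and 0.810 FPKM in WT 3, 4 and 5 (log2 fold change 0.12, or 0.069 without KO 5; limma adjusted p = 0.582).

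Pcdhb1 was the only member at 0 in a whole group. No fragment was counted in KO 2, 4 and 5, and 1 fragment was counted in WT 4 and none in WT 3 and 5. A count of 0 allows up to 3 fragments, or 0.0685 to 0.0764 FPKM in the KO libraries, counting error only, so a difference was not detectable at this depth. The remaining 12 beta genes overlapped between the groups, among them Pcdhb7, whose 2.43, 1.40 and 2.17 FPKM in KO 2, 4 and 5 and 1.40, 2.01 and 1.59 FPKM in WT 3, 4 and 5 gave the widest spread within the KO group of any beta gene. Few stretches of beta transcripts were identical to another member: the share of 100-base windows of a transcript that occur in another member had a median of 0.207% over the 22 genes and reached 7.73% in Pcdhb21, and 9 genes had none. The sources used here do not say how fragments matching several genes were counted.

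In the gamma cluster the C-type genes held both the most abundant member and the only one whose groups did not overlap. Pcdhgc3 had 10.96, 11.2 and 9.85 FPKM in KO 2, 4 and 5 and 10.5, 11.2 and 10.7 FPKM in WT 3, 4 and 5. The groups overlapped, with 10.7 ± 0.705 FPKM in KO and 10.8 ± 0.365 FPKM in WT (SD, n = 3 each). Its log2 fold change of -0.02 had a 95% interval of -0.15 to 0.12 (limma adjusted p = 0.915), the narrowest interval among the 21 members of the stricter test, and the gene took 31.3% to 33.6% of gamma fragments in KO and 31.9% to 33.7% in WT libraries. A further 1559 bp of its exons are overlapped by exons of a gene on the opposite strand, and the sources used here do not say whether fragments were counted by strand. Opposite-strand overlap was present in 10 of the 54 members.

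Pcdhgc4, which is needed for the survival of neurons in mice, had 1.07, 1.16 and 1.13 FPKM in KO 2, 4 and 5, against 0.725, 0.904 and 0.839 FPKM in WT 3, 4 and 5. Every KO library lay above every WT library, with means of 1.12 ± 0.0451 FPKM in KO and 0.823 ± 0.0906 FPKM in WT (SD, n = 3 each). The log2 fold change of 0.22 did not pass (limma adjusted p = 0.286, and between 0.143 with voom and 0.585 with a replicate block over the settings tried), and voom put it at 0.45. This gene reached 1 FPKM in the 3 KO libraries and in no WT library, so it entered the stricter test through the KO group alone. Pcdhgc5, the C-type gene at the end of the cluster, had 1.31, 1.13 and 1.29 FPKM in KO 2, 4 and 5 and 1.02, 1.14 and 0.952 FPKM in WT 3, 4 and 5 (log2 fold change 0.14, limma adjusted p = 0.472). Its groups overlapped only through KO 4 and WT 4.

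Type B genes were led by Pcdhgb6, the second most abundant of all members. It had 4.14, 4.26 and 3.10 FPKM in KO 2, 4 and 5 and 3.69, 4.20 and 3.95 FPKM in WT 3, 4 and 5 (log2 fold change -0.04, limma adjusted p = 0.874). KO 5 was the lowest of the 6 libraries and KO 4 the highest. Pcdhgb7 had 1.30, 1.15 and 1.37 FPKM in KO 2, 4 and 5 and 1.26, 1.21 and 1.37 FPKM in WT 3, 4 and 5 (log2 fold change -0.00, limma adjusted p = 0.989). Pcdhgb4 had 0.991, 0.996 and 0.919 FPKM in KO 2, 4 and 5 and 1.15, 1.20 and 0.969 FPKM in WT 3, 4 and 5 (log2 fold change -0.10, or -0.063 without WT 4; limma adjusted p = 0.644 at the lower filter). In Pcdhgb4 the KO libraries tended to the low side and overlapped WT through WT 5. Pcdhgb1 had 0.748, 0.890 and 0.822 FPKM in KO 2, 4 and 5 and 0.870, 0.634 and 0.899 FPKM in WT 3, 4 and 5 (log2 fold change 0.02, limma adjusted p = 0.954 at the lower filter). Summed over the 6 type B genes, expression was 8.38 ± 0.555 FPKM in KO and 8.77 ± 0.325 FPKM in WT (SD, n = 3 each).

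Among type A genes, Pcdhga3 was the most abundant and had the lowest fold change of the 11 gamma genes in the stricter test. It had 2.10, 1.88 and 2.02 FPKM in KO 2, 4 and 5 and 2.52, 2.67 and 1.72 FPKM in WT 3, 4 and 5 (log2 fold change -0.13, limma adjusted p = 0.624), and the log2 fold change was -0.077 without WT 3, -0.045 without WT 4, -0.26 without WT 5 and -0.049 with sex as a covariate. WT 3 and WT 4 were above the KO libraries and WT 5 below them. Pcdhga2 had 1.46, 1.85 and 1.50 FPKM in KO 2, 4 and 5 and 1.46, 1.91 and 1.55 FPKM in WT 3, 4 and 5 (log2 fold change -0.02, limma adjusted p = 0.946). Pcdhga7 had 1.78, 1.42 and 1.15 FPKM in KO 2, 4 and 5 and 1.46, 1.67 and 1.57 FPKM in WT 3, 4 and 5 (log2 fold change -0.08, limma adjusted p = 0.765). Pcdhga5 had 1.88, 1.47 and 1.17 FPKM in KO 2, 4 and 5 and 1.39, 1.33 and 1.25 FPKM in WT 3, 4 and 5 (log2 fold change 0.10, limma adjusted p = 0.697). In Pcdhga7 and Pcdhga5 alike, KO 2 was the highest library and KO 5 the lowest. The 11 type A genes summed to 12.4 ± 0.145 FPKM in KO and 12.8 ± 1.07 FPKM in WT (SD, n = 3 each). Pcdhga6 varied least relative to counting error among the members with at least 60 fragments, at 1.10, 1.04 and 1.13 FPKM in KO 2, 4 and 5 and 1.10, 1.16 and 1.00 FPKM in WT 3, 4 and 5, and it is named after its values were seen.

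Most of the alpha RNA came from Pcdhac2. It had 2.81, 2.76 and 1.89 FPKM in KO 2, 4 and 5 and 1.91, 2.13 and 1.89 FPKM in WT 3, 4 and 5. KO 2 and KO 4 were above every WT library, and KO 5 was at the level of WT 5 and WT 3. The means were 2.49 ± 0.517 FPKM in KO and 1.98 ± 0.134 FPKM in WT (SD, n = 3 each), and the log2 fold change of 0.22 did not pass (limma adjusted p = 0.392, and between 0.143 and 0.673 over the settings tried). Without KO 5 the log2 fold change was 0.35 and the limma adjusted p was 0.143. The gene took 75.3% to 75.8% of alpha fragments in KO libraries and 77.4% to 80.5% in WT libraries. Pcdhac1, the other C-type gene, had 12, 6 and 4 fragments in KO 2, 4 and 5 and 5, 3 and 5 fragments in WT 3, 4 and 5, a rate ratio of KO over WT of 1.72 with a 95% Poisson interval of 0.831 to 3.73. Such intervals cover counting error only.

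The 10 variable alpha genes were at or near the limit of detection, with at most 15 fragments per gene in any library. Together they had 76, 84 and 51 fragments in KO 2, 4 and 5 and 40, 60 and 43 fragments in WT 3, 4 and 5, and the groups overlapped. More fragments fell in KO than in WT for 7 of the 10, fewer for 2 and as many for 1. The members with the highest mean were Pcdha2, with 11, 12 and 6 fragments in KO 2, 4 and 5 and 8, 12 and 14 in WT 3, 4 and 5, and Pcdha3, with 9, 14 and 8 in KO 2, 4 and 5 and 7, 15 and 6 in WT 3, 4 and 5. Pcdha5 had 7, 10 and 9 fragments in KO 2, 4 and 5 and 5, 8 and 3 in WT 3, 4 and 5 (rate ratio 1.66, 95% Poisson interval 0.855 to 3.30), and Pcdha12 had 15, 7 and 7 in KO 2, 4 and 5 and 6, 8 and 2 in WT 3, 4 and 5 (rate ratio 1.85, 95% Poisson interval 0.970 to 3.64). The values overlapped between the groups in all 4 of these genes. Pcdha2 and Pcdha3 were the only variable alpha genes in the test at the lower filter, with log2 fold changes of -0.02 and 0.02 (limma adjusted p = 0.906 and 0.930).

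Among alpha genes, Poisson intervals left out a ratio of 1 in Pcdhac2 (rate ratio 1.26, 95% Poisson interval 1.13 to 1.41) and in 3 of the 10 variable alpha genes, which are named after their values were seen. All 3 were higher in KO, where 6.22% of the 8028 genes with 4 to 63 fragments over the 6 libraries, the range of the variable alpha genes, had an interval above 1 and 5.04% had one below 1. Pcdhac2, with 1300 fragments, lay outside that range, and no share was computed for genes of its depth. Such intervals also left out 1 in other clusters, above it in Pcdhb17 (1.21 to 1.48) and below it in Pcdhga12 (0.722 to 0.974), among others. Pcdha11 had 9, 13 and 7 fragments in KO 2, 4 and 5, against 3, 3 and 4 in WT 3, 4 and 5 (rate ratio 2.96, 95% Poisson interval 1.40 to 6.80), and was the only alpha gene whose groups did not overlap. Pcdha1 had 7, 9 and 0 fragments in KO 2, 4 and 5 and 1, 1 and 1 in WT 3, 4 and 5 (rate ratio 5.43, 95% Poisson interval 1.56 to 29.1). Pcdha7 had 6, 10 and 3 in KO 2, 4 and 5 and 0, 1 and 4 in WT 3, 4 and 5 (rate ratio 3.87, 95% Poisson interval 1.40 to 13.3). Both of the last overlapped between the groups, and KO 5 had the fewest fragments of the KO libraries in all 3 genes. None of the 3 reached the level of either test.

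The libraries of a group differed from each other by more than counting error in many members. The chi-square of the fragments within groups, divided by its degrees of freedom, would average 1 with counting error alone. Over the 43 members with at least 60 fragments in all, its median was 1.84, with 11 members above 3 and 13 below 1. It was 5.37 in Pcdhac2, 4.57 in both Pcdhga3 and Pcdhgb6, 2.58 in Pcdhgc3 and 0.288 in Pcdhga6. Such spread was not particular to these members. In pairs of libraries of 1 group, the same ratio averaged 4.20 to 8.87 over 16524 to 16669 genes, not matched to the members for depth. Of the 21 tested beta genes, 10 had their highest value in KO 5 and 7 their lowest in WT 3, and none peaked in WT 3 or WT 5. Of the 20 gamma genes, 8 peaked in WT 4 and 7 were lowest in KO 5. KO 5 was thus often the highest library for beta genes and often the lowest for gamma genes, and in Pcdhac2 it was the lowest KO library, level with WT 5.

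**Figure D4:**
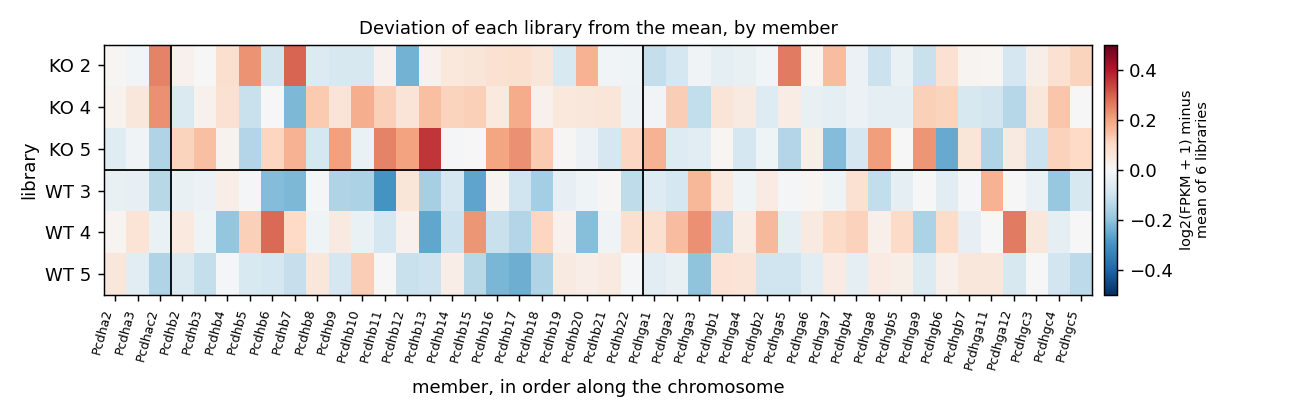
Deviation of each library from the mean of the 6 libraries on log2(FPKM + 1), for the 44 members tested at the lower filter in chromosome order (columns) and the libraries (rows, KO above WT), red for higher and blue for lower. Vertical lines separate the alpha, beta and gamma clusters. In the beta cluster the 5 genes Pcdhb3, Pcdhb11, Pcdhb13, Pcdhb16 and Pcdhb17 are above all WT values in the 3 KO libraries, while KO 2 and KO 5 differ in sign in genes such as Pcdhga5 and Pcdhga7.

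Genes known to act on the clusters or with their proteins were followed as 5 lists of 47 genes. Of the 46 tested, 31 were above 0, the median log2 fold change was 0.04 and 0 were called by limma, with 5 higher and 7 lower at an unadjusted p under 0.05, against 10.6% higher and 6.99% lower among all genes tested. All KO values lay above all WT values in 10 of the 46 and below them in 10. Among all genes tested these shares were 15.2% and 9.54%. Voom called 1, where it called 2.83% of all genes. This was Adam10, which encodes the protease that sheds protocadherin ectodomains. Adam10 had 33.6, 31.5 and 34.9 FPKM in KO 2, 4 and 5, against 28.6, 26.2 and 22.4 FPKM in WT 3, 4 and 5, without overlap (log2 fold change 0.37, limma adjusted p = 0.128; voom adjusted p = 0.0358).

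All 11 genes of CTCF and cohesin, which fold the DNA between cluster promoters and enhancers, were above 0 by small amounts and 0 were called. The most abundant, the cohesin subunit genes Rad21 and Smc1a, each had a log2 fold change of 0.02 (limma adjusted p = 0.886 and 0.834). Wapl, the cohesin release factor gene, had the smallest adjusted p of the list and is named for it after its values were seen, with 9.41, 9.12 and 9.33 FPKM in KO 2, 4 and 5, against 8.15, 8.36 and 7.43 FPKM in WT 3, 4 and 5 (log2 fold change 0.20, limma adjusted p = 0.161). In 4 of the 11, Ctcf, Stag1, Stag2 and Wapl, all KO values lay above all WT values, and no gene had the reverse. These were named after their values were seen, and 15.2% of all genes tested were apart and higher. Of the 9 genes of chromatin silencing, 5 were above 0 and 0 were called, but Setdb1, Trim28, Dnmt1 and Wiz had all KO values below all WT values and no gene the reverse, where 9.54% of all genes tested were apart and lower. Of these 4, named after their values were seen, 3 were lower at an unadjusted p under 0.05 (log2 fold change -0.11 in Setdb1, -0.18 in Trim28 and -0.14 in Wiz). Trim28, a corepressor that recruits the histone methyltransferase encoded by Setdb1, had 52.2, 51.2 and 56.8 FPKM in KO 2, 4 and 5, against 60.7, 61.4 and 59.5 FPKM in WT 3, 4 and 5 (log2 fold change -0.18, limma adjusted p = 0.151). The groups did not overlap in Wapl or Trim28. The next by level, the DNA methyltransferase gene Dnmt3a, had a log2 fold change of 0.07 (limma adjusted p = 0.454).

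In the list of the WAVE complex, an actin regulator that binds protocadherin tails, and of Rac1, the GTPase that activates it, 8 of 10 genes were above 0 and 0 were called. The most abundant, Rac1 and the subunit gene Brk1, had log2 fold changes of 0.07 and 0.01 (limma adjusted p = 0.630 and 0.902). Among kinases and partners of the tail, 4 of 10 tested genes were above 0 and 0 were called. Marcks, a membrane-bound actin regulator and the most abundant of these, had a log2 fold change of 0.04 (limma adjusted p = 0.894), and Nlgn2, a postsynaptic adhesion protein gene, one of -0.14 (limma adjusted p = 0.180). Of the 6 shedding and gamma-secretase genes, 3 were above 0, and Ncstn, a subunit of gamma-secretase, had a log2 fold change of -0.02 (limma adjusted p = 0.820). All KO values lay above all WT values in 3 genes of the WAVE list, 1 of the tail list and 2 of the shedding list. All lay below in 2, 3 and 1 genes in the same order, where 15.2% and 9.54% of all genes tested were apart and higher or lower.

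Protocadherin genes that lie outside the clusters, whose products share the extracellular cadherin repeats, were followed for comparison. Of 12 listed, 7 were tested, 6 of them above 0, with a median log2 fold change of 0.16 and 0 called by limma (smallest adjusted p = 0.155). Pcdh18 had 15.6, 12.6 and 13.9 FPKM in KO 2, 4 and 5 and 12.6, 10.9 and 10.8 FPKM in WT 3, 4 and 5 (log2 fold change 0.27, limma adjusted p = 0.189). Pcdh1 went the other way, with 5.78, 5.08 and 4.95 FPKM in KO 2, 4 and 5, against 6.53, 7.52 and 6.10 FPKM in WT 3, 4 and 5 (log2 fold change -0.30, limma adjusted p = 0.163). The groups did not overlap in either gene. Of the 7 tested, 5 had all KO values above all WT values and 1, Pcdh1, had all below. Among all genes tested, 15.2% were apart and higher and 9.54% apart and lower.

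The sums of some marker lists separated the groups along with the beta sum, and the part of these cell types in it was not tested. The 6 hair cell markers summed to 29.3 to 32.4 FPKM in KO and 25.9 to 28.8 FPKM in WT libraries, and all 5 tested were above 0. The 7 genes listed as brain markers summed to 56.8 to 63.0 FPKM in KO and 50.3 to 55.8 FPKM in WT, with 6 of 6 tested above 0. Zic2 alone had 30.3 to 35.4 FPKM in KO and 28.5 to 30.6 FPKM in WT. Zic1 had 14.1 to 15.3 FPKM in KO and 13.2 to 13.7 FPKM in WT. Neurod6, a marker of forebrain neurons, was at or near 0 in every library, and whether the sum reflects brain tissue was not tested. The sum of the 5 middle ear epithelium markers went the other way, at 10.9 to 101 FPKM in KO and 392 to 742 FPKM in WT. Bpifa1 alone had 0.0777 to 93.3 FPKM in KO and 336 to 608 FPKM in WT. Reg3g and Muc5b had all KO values below all WT values, but were at only 0.385 and 0.481 FPKM in WT 5. Bpifb1 and Ltf overlapped between the groups. Of the 6 markers of otic mesenchyme and spiral ligament, the transcription factor genes Pou3f4 and Tbx18 and the spiral ligament genes Coch and Otos had all KO values above all WT values, where 15.2% of all genes tested did. These markers and the neuronal ones named next were picked after their values were seen. The log2 fold changes of the 4 were 0.26, 0.37, 0.26 and 0.60, each with an unadjusted p under 0.05 (smallest limma adjusted p = 0.0792, in Pou3f4). Col1a2 and Dcn, the rest of the list, were below 0 (log2 fold change -0.01 and -0.13) and overlapped between the groups. The sum of the 6 overlapped, at 1698 to 1989 FPKM in KO and 1730 to 1903 FPKM in WT, with Col1a2 alone at 1410 to 1712 FPKM in KO and 1473 to 1656 FPKM in WT. The 12 neuronal markers, of which 10 were above 0 and Snap25, Slc17a6 and Elavl4 had all KO values above all WT values, summed to 155 to 202 FPKM in KO and 127 to 186 FPKM in WT and overlapped. Prph and Gap43 were below 0 (log2 fold change -0.51 and -0.41) and overlapped between the groups. At an unadjusted limma p under 0.05, 4 neuronal markers were higher and 1, Gap43, was lower, against 10.6% and 6.99% of all genes tested. Sums also overlapped for the 7 Schwann cell markers (1089 to 1266 FPKM in KO, 959 to 1713 in WT), the 5 supporting cell markers (124 to 137 in KO, 119 to 129 in WT) and the 7 skeletal muscle markers (32.6 to 238 in KO, 133 to 581 in WT). No marker gene was called by limma.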

How the data were processed

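RNA of 6 cochlea libraries, 3 KO and 3 WT, was made into libraries with a VAHTS Universal V6 kit, per the labels' protocols. The authors deposited 1 table of FPKM values per gene and library, on build GRCm38, per the submitters' processing notes. The sources used here name no aligner, counter or strand setting. FPKM removes depth, but each deposited FPKM value times the exon length of GENCODE annotation was a whole number of fragments, within 0.01 fragment plus a relative 1e-06, in every library for 29933 genes (98.3%), and the fragment counts used here were recovered in this way.

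The test was limma 3.58.1 in R 4.3.3 (lmFit, eBayes with a trend) on log2(FPKM + 1), for genes that reached 1 FPKM in 3 or more libraries, two-sided, adjusted by Benjamini-Hochberg over all genes, with a threshold of 0.05. The steps were tested on simulated data with changes set only in deeply covered genes, which does not show what they find in weakly expressed members. Other counts and sums used Python 3.11.15, numpy 2.4.6 and pandas 2.3.3, and plots matplotlib 3.10.9. Members, lists and tests were chosen with earlier results of these data known. Named by rule were Neu4, called members, the 4 members with the highest mean of each variable type, C-type members, the tested members with the highest and lowest fold change per cluster, members at 0 in a whole group and, of each list, called genes or else the 2 with the highest mean. Any further gene was picked once its values were known, as stated beside it. Results were recomputed with the replicate number as a block, sex as a covariate, library weights, other scalings, filters, pseudocounts and eBayes settings, protein-coding genes only, leaving out each library, and voom on the recovered fragments, which called 390 of 13796 genes. No 2 libraries held identical values, and replicates differed by more than sampling noise.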

Additional observations from a re-analysis of the deposited data

How the results depend on the processing

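No alternative called a clustered protocadherin. With the stricter filter, 7 to 9 of the 9 tested beta genes had a fold change above 0, and 14 to 19 of 21 with the filter at 0.1 FPKM, a filter whose combinations with the other settings were chosen after seeing the data. The 47 genes called over the whole table became 15 with a pseudocount of 0.01, 19 with no filter, 21 with a filter of 0.1 FPKM, 103 with one of 5 FPKM (where Pcdhgc3 was the only member tested), 19 with no trend, 104 with library weights, 24 with sex as a covariate, 390 with voom and 12 to 105 with 1 library left out. Voom called 1 of the pathway genes. The median log2 fold change of the alpha cluster, which is Pcdhac2 alone at 1 FPKM (0.22), was 0.050 with no filter and 0.019 at 0.1 FPKM, where it became 0.11 with a pseudocount of 0.1, 0.23 with one of 0.01, 0.23 with voom and -0.0048 to 0.057 with 1 library left out. That of the beta cluster (0.12) was 0.21 with a pseudocount of 0.1, 0.22 with one of 0.01 and 0.23 with voom, and at 0.1 FPKM it was 0.17, 0.18 and 0.19 in the same order and 0.074 to 0.10 with 1 library left out. These scales shrink low values less, and the causes of the other moves were not tested.

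Differences near 0 changed sign. The Neu4 difference of 0.00181 FPKM ranged from -0.0110 to 0.0158 with 1 library left out. With sex as a covariate, Pcdhb5 was at 0.059 and Pcdhgb1 at -0.017. With 1 library left out, the log2 fold change ranged from -0.048 to 0.00012 for Pcdha2, -0.0048 to 0.057 for Pcdha3, -0.017 to 0.085 for Pcdhb22, -0.14 to 0.045 for Pcdhb5, -0.085 to 0.054 for Pcdhga2, -0.0041 to 0.20 for Pcdhga5, -0.17 to 0.014 for Pcdhga7, -0.051 to 0.057 for Pcdhgb1, -0.11 to 0.074 for Pcdhgb6, -0.034 to 0.035 for Pcdhgb7 and -0.047 to 0.035 for Pcdhgc3. The named members changed direction in 22 comparisons of a setting with the value reported and kept it in 400. These comparisons refit the same 6 libraries and are not independent of each other.

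The replicate numbers 4 and 5 occur in both groups. Same-numbered libraries deviated together with a correlation of 0.14 (number 4) and 0.15 (number 5), but with 2 shared numbers they are taken to share only a number. A replicate block called 22 genes, or 0 with the filter at 0.1 FPKM, and 0 members. Depth limits the variable alpha genes and Pcdhb1, which rest on at most 15 fragments in any library.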
